A study of Mus musculus with 22 samples.

Results

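The genes that make cholesterol and fatty acids were followed in mouse NIH/3T3 cells, an established line of immortalized embryo fibroblasts, for 12 h after resting cells received either doxycycline or serum. The 32 members were taken by gene symbol, and 32 of 32 were present in the authors' table of 11208 genes. They were 17 enzymes of sterol synthesis, 9 enzymes of fatty acid synthesis, elongation and desaturation, and 6 genes that regulate these routes or carry sterol between membranes. One line held a stably integrated, doxycycline-inducible construct for the cell cycle transcription factor E2F1 (the E2F1 line). The control line held the same kind of construct without E2F1 (empty vector, the EV line), and the labels do not say whether either line is a clone. Every group, controls included, was first starved for 48 h in 0.25% heat-inactivated fetal bovine serum. The E2F1 line was sampled at 0, 2, 6 and 12 h of 500 ng/ml doxycycline without added serum, and so was the EV line. The EV line was also sampled at 2, 6 and 12 h after 10% serum. That gave 22 libraries of polyadenylated RNA in 11 groups of 2, and the doxycycline and serum changes of the EV line share its 0 h libraries. Doxycycline itself and further hours in low serum cannot be told apart in the EV line. Nothing in the labels says that the 2 libraries of a group came from separate cultures, so p-values measure the spread between these libraries, which may be technical.

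Cells build cholesterol from acetyl-CoA through mevalonate, farnesyl diphosphate, squalene and lanosterol. They build fatty acids from the same acetyl-CoA through malonyl-CoA. Both routes are run largely by the SREBP transcription factors, encoded by Srebf1 and Srebf2. These factors are held in the endoplasmic reticulum by SCAP and the INSIG proteins while sterol is plentiful and are released to the nucleus when it runs short. Cultured fibroblasts take sterol and lipid from serum when it is supplied and make their own when it is not.

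Values are the authors' normalized counts. Totals over the table ran from 34014608 to 46057140 per library, and the original depth could be estimated in 16 of the 22 libraries, at 30500000 to 50300000 reads. The lowest mean of any gene was 99.6, so the table holds only genes of some abundance. The 10 fibroblast markers were all present, with a summed level of 671797 to 1389347 per library. Of other cell types, 1 of 8 adipocyte markers (Lpl, 100 to 1401), 1 of 5 macrophage markers (Csf1r, 33 to 735) and 0 of 10 epithelial, endothelial and muscle markers were in the table. E2f1 itself rose in the E2F1 line by 1.15 at 6 h and 0.73 at 12 h on the log2 scale. Counts are of the mouse E2f1 gene, and the labels do not give the sequence of the construct. Its transcripts may be counted there or missed, so the source of this rise cannot be told. The EV libraries labelled 2 h of doxycycline stood between the lines. For 32 genes that mark the E2F1 line, they lay at 0.46 and 0.431 of the way from the EV to the E2F1 level. The E2F1 libraries of 2 h lay at 0.932 and 0.904. These genes were chosen by libraries of 0, 6 and 12 h, and only those of 2 h were left out. The place of the other EV doxycycline libraries, between -0.121 and 0.144, was thus largely fixed by the choice. What part the place of the EV 2 h libraries had in any result was not tested. The fits were repeated without the 4 libraries of 2 h doxycycline, and comparisons of 2 h with 0 h in the EV line rest on those libraries.

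Within a group the members moved together between the replicates, more than genes at large did. In the serum 12 h group, 17 of 17 sterol enzymes and 9 of 9 fatty acid enzymes were higher in replicate 2, by a median of 0.48 and 0.37 on the log2 scale. Of all genes, 48.9% were higher in that library, with a median difference of 0. In the E2F1 line 0 of 17 sterol enzymes were higher in replicate 2 at 0 h and at 6 h, while 17 of 17 were at 2 h. The members therefore do not give independent readings of a group, and a count of members overstates the evidence for a common shift. What differed between the cultures or libraries was not tested.

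**Figure D1:**
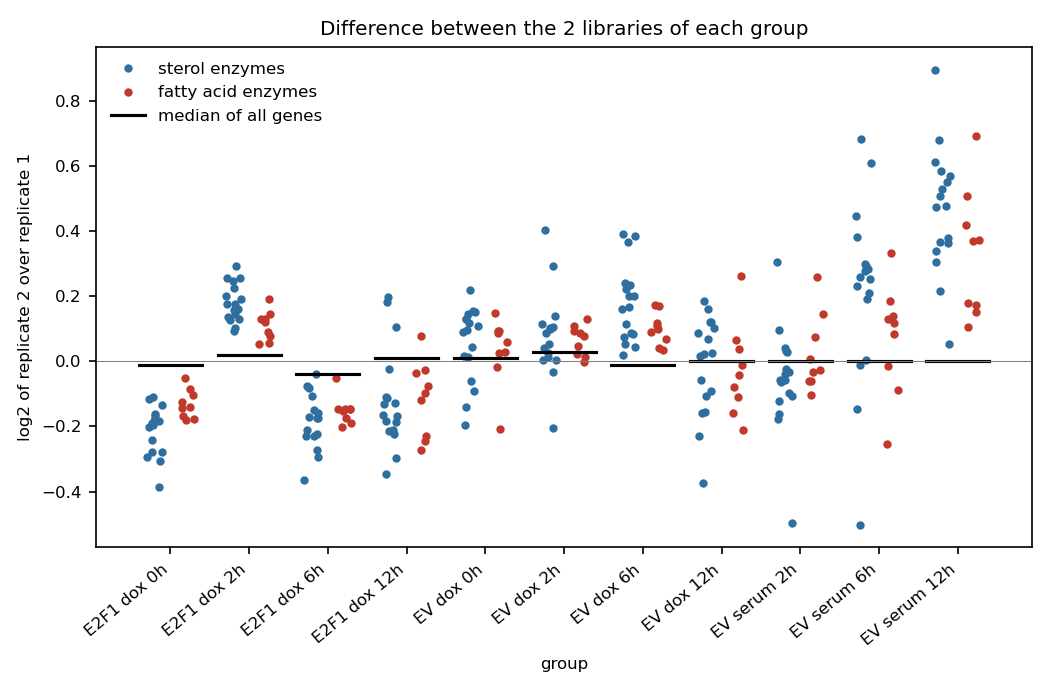
Log2 ratio of replicate 2 over replicate 1 in each of the 11 groups (y axis), with 1 point per sterol enzyme (blue) or fatty acid enzyme (red) and a black bar at the median of all genes. In most groups the points lie to one side of the bar, and they lie farthest from it in the serum 12 h group, where the sterol median is 0.48.

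The DNA in front of these genes was read for known factor motifs, since many of the members moved together. Promoter windows of 300 bases, from 250 before to 50 after a RefSeq start site (build GRCm38.p6), were available for 25 of the 32 members. The CCAAT box bound by NF-Y, a partner of the SREBPs at many of their targets, was searched as CCAAT on both strands. It occurred in 13 of 14 sterol enzyme promoters (92.9%), in 3 of 6 fatty acid enzyme promoters (50%) and in 44.0% of the 8609 genes of the table with a window. The classical sterol element, searched as TCACNCCAC on both strands, occurred only in Hmgcs1 among the members, against 1.34% of the table's genes. The E2F spellings TTTGGCGC, TTTCCCGC, TTTGCCGC and TTTCGCGC occurred only in Fasn among the members, against 5.1% of the table's genes. The GC box of Sp1, searched as GGGCGG on both strands, occurred in 21 of 25 member promoters (84%) and 72.0% of the table's genes. Of the 14 sterol enzyme promoters 13 held it, as many as held CCAAT. The E-box CACGTG occurred in 5 of 25 member promoters (20%) and 12.1% of the table's genes. Other spellings of these sites were not searched, and a match is a stretch of letters, not a measured site. The stretches below belong to Hmgcs1, Mvd and Mvk, which fell under each treatment by 12 h, and to Fasn and Insig1, which rose under E2F1. Capitals mark the CCAAT box (ATTGG on the other strand), the sterol element of Hmgcs1, the E2F spelling of Fasn and the E-box CACGTG of Insig1. In Fasn the letters CCAATTGG hold a CCAAT box on each strand, overlapping.
Hmgcs1, chr13:119690171-119690313, plus strand, GRCm38.p6: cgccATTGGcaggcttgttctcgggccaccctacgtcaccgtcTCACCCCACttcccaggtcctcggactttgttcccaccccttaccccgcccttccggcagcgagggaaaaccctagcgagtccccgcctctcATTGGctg
Mvd, chr8:122443442-122443487, minus strand, GRCm38.p6: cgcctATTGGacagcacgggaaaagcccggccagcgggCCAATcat
Mvk, chr5:114444199-114444261, plus strand, GRCm38.p6: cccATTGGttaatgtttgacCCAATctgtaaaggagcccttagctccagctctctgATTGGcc
Fasn, chr11:120824600-120824699, minus strand, GRCm38.p6: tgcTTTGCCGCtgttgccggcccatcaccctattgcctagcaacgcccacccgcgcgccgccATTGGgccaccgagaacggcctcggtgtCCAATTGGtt
Insig1, chr5:28071194-28071318, plus strand, GRCm38.p6: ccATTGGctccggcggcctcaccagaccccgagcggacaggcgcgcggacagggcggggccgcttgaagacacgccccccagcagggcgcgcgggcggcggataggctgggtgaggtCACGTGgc

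Changes were tested for every gene of the table with limma on log2(value + 1), and a gene was called at a Benjamini-Hochberg adjusted p of at most 0.05. Errors after a log2 change are its standard error (SE). Statements that libraries lay apart or did not overlap describe the values and add no support to a call. Many members were picked for library values partly by this trait, and its share among all genes was not counted. After 2 h of doxycycline 0 of 32 members were called in the E2F1 line, with 1 at an unadjusted p under 0.05, where 1.86% of all genes were called. At 6 h 6 members were higher and 11 lower (all genes called: 51.7%, with 28.8% higher and 22.9% lower), or 5 and 16 under quantile normalization. At 12 h 4 were higher and 16 lower (61.5%, with 31.8% higher and 29.7% lower). In the EV line doxycycline gave 1 call at 2 h (7.35%), 0 at 6 h (0.134%), with 1 at an unadjusted p under 0.05, and 17 at 12 h. These 17 were all lower, where 3.42% of all genes were called lower, 0.749% higher and 4.17% in either direction. Serum gave 3 higher and 20 lower members at 2 h (70.9%, with 37.5% higher and 33.5% lower), and 1 and 26 at 6 h (67.5%, with 36.5% and 31%). At 12 h of serum the numbers were 3 and 26 (65.7%, with 36% and 29.7%). For the E2F1 line and for 2 h of serum the total of called members was thus not far from that of genes at large, while at 6 and 12 h of serum 27 and 29 of the 32 were called, a higher share than of all genes. A called change of at least 2-fold was reached by 0 members at 6 h of E2F1 (9.95% of all genes) and by 2, Mvd and Mvk, at 12 h (16.1%). Under doxycycline alone 0 reached it at 2 h (0.901%) or 12 h (1.52%), and under serum 7 did at 2 h (28.1%), 11 at 6 h (22.4%) and 8 at 12 h (19.2%).

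**Figure D2:**
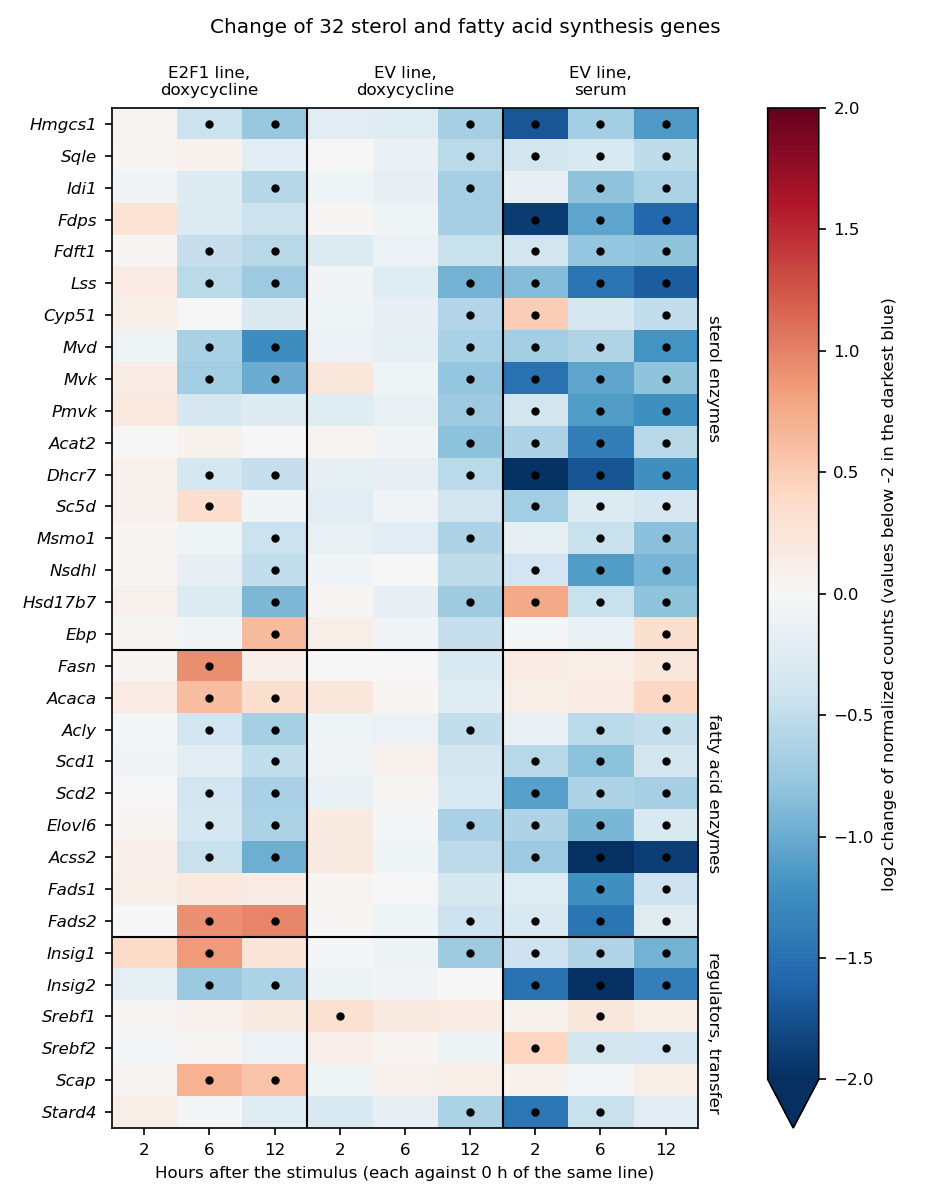
Log2 change of each of the 32 members (rows) against 0 h of the same line at 2, 6 and 12 h (columns) of doxycycline in the E2F1 line, doxycycline in the EV line and serum in the EV line. Red is higher, blue is lower, and a black dot marks an adjusted p of at most 0.05. The sterol rows are blue at 12 h in all 3 blocks except Ebp under E2F1 and serum and Acat2 under E2F1, and the reddest rows at 6 h of E2F1 are Fasn, Acaca, Fads2, Insig1 and Scap.

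Sterol enzymes declined over 12 h of doxycycline in both lines. Against 0 h, 10 of the 17 fell in the E2F1 line, with a median log2 change of -0.46 over the 17. In the EV line 12 fell, with a median of -0.65. The median of all genes was -0.02 and 0. Of all 11208 genes 3329 were called lower in the E2F1 line and 383 in the EV line. Called lower in both lines were 8 sterol enzymes, Hmgcs1, Idi1, Lss, Mvd, Mvk, Dhcr7, Msmo1 and Hsd17b7, as were 0.401% of all genes, and 15 of 17 were below 0 h in both by sign, as were 21.3% of all genes. Without EV 0 h replicate 2 none of these 8 stayed called in the EV line. Fewer cells of a kind and less RNA per cell cannot be told apart in such bulk samples.

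The first committed enzyme among the members is HMG-CoA synthase, encoded by Hmgcs1 (ENSMUSG00000093930.2, chromosome 13, 119690379 to 119708260 in GRCm38). In the E2F1 line its 2 libraries held 12446 and 11084 normalized counts at 0 h, 11514 and 12834 at 2 h, 9372 and 8093 at 6 h, and 7686 and 6262 at 12 h. EV libraries held 11630 and 12909 at 0 h, 10297 and 10933 at 2 h, 9812 and 10958 at 6 h, and 7906 and 7599 at 12 h. Both 12 h libraries lay below both 0 h libraries in each line. The log2 change at 12 h was -0.76 (SE 0.17, adjusted p 0.000732) in the E2F1 line and -0.66 (SE 0.17, adjusted p 0.0315) in the EV line.

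Mevalonate is then phosphorylated by mevalonate kinase (Mvk, ENSMUSG00000041939.14, chromosome 5, 114444269 to 114460591) and phosphomevalonate kinase (Pmvk), and decarboxylated by Mvd (ENSMUSG00000006517.5, chromosome 8, 122433601 to 122443422). Mvk stood at 4102 and 3665 at 0 h in the E2F1 line, at 2462 and 2324 at 6 h and at 1869 and 2009 at 12 h, with no overlap between these times. With the empty vector it held 3355 and 3046 at 0 h, 3600 and 3866 at 2 h, 2644 and 3412 at 6 h and 1796 and 1952 at 12 h. It thus lay above 0 h at 2 h, overlapped it at 6 h and lay below it at 12 h. Its 12 h log2 changes were -1 (SE 0.14, adjusted p 8.07e-06) and -0.77 (SE 0.14, adjusted p 0.00489). Mvd had the largest fall of the 32 members at 12 h of E2F1. It went from 4681 and 4340 to 2987 and 2777 at 6 h and 1976 and 1806 at 12 h in the E2F1 line. EV libraries went from 4380 and 4666 to 3616 and 4258 and then 2724 and 3043. Here too the 12 h libraries were below both 0 h libraries in each line. The log2 changes at 12 h were -1.25 (SE 0.17, adjusted p 6.34e-06) and -0.65 (SE 0.17, adjusted p 0.0407). Pmvk (ENSMUSG00000027952.16, chromosome 3, 89454541 to 89469013) held 2014 and 1641 at 0 h and 1577 and 1461 at 12 h in the E2F1 line, a change of -0.26 (SE 0.15, adjusted p 0.143). With the empty vector it fell from 2322 and 2178 to 1322 and 1386 (-0.73, SE 0.15, adjusted p 0.00977).

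The isoprenoid branch point and the closing of the sterol ring behaved alike in direction. Fdps, farnesyl diphosphate synthase (ENSMUSG00000059743.12, chromosome 3, 89093588 to 89101959), had 821 and 676 at 0 h and 576 and 533 at 12 h in the E2F1 line, and 803 and 701 against 542 and 418 in the EV line. Its libraries lay apart in both lines, but the changes of -0.43 (SE 0.23, adjusted p 0.112) and -0.66 (SE 0.23, adjusted p 0.126) did not pass. Lss, lanosterol synthase (ENSMUSG00000033105.12, chromosome 10, 76531588 to 76557138), went from 9612 and 8394 to 6576 and 5827 at 6 h and 5830 and 5129 at 12 h in the E2F1 line. EV libraries went from 9573 and 10478 to 7390 and 9650 and then 5474 and 4902. Both lines were lower at 12 h without overlap, with changes of -0.72 (SE 0.17, adjusted p 0.00138) and -0.95 (SE 0.17, adjusted p 0.00418). Idi1, which isomerizes isopentenyl diphosphate, changed by -0.57 (adjusted p 0.00623) and -0.67 (adjusted p 0.0284).

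Among the enzymes that trim lanosterol to cholesterol, Hsd17b7 (ENSMUSG00000026675.12, chromosome 1, 169949535 to 169969241), a 3-ketosteroid reductase, fell most. Its E2F1 line libraries held 4151 and 3655 at 0 h, 3493 and 2977 at 6 h and 2217 and 1977 at 12 h. The EV line held 2874 and 3120, then 2471 and 2922, then 1894 and 1758. Neither line's 12 h libraries overlapped its 0 h libraries, and the changes were -0.90 (SE 0.12, adjusted p 5.78e-06) and -0.71 (SE 0.12, adjusted p 0.00349). Dhcr7 (ENSMUSG00000058454.15, chromosome 7, 143823145 to 143848410), which makes cholesterol in the last step, held 1915 and 1692 at 0 h and 1225 and 1405 at 12 h in the E2F1 line. EV libraries held 2022 and 2043 at 0 h and 1340 and 1457 at 12 h. Its libraries were apart in both lines, with changes of -0.46 (SE 0.14, adjusted p 0.00904) and -0.54 (SE 0.14, adjusted p 0.0357). Sc5d, a desaturase late in the route, was the one sterol enzyme called higher at 6 h in the E2F1 line, by 0.33 (adjusted p 0.0256). Quantile normalization and equal totals ended that call, and at 12 h Sc5d stood at -0.05 (adjusted p 0.726).

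The EV fall was steady in size but not in its calls. Without EV 0 h replicate 2 the median of the 17 sterol enzymes was -0.56 and the 17 calls over all members became 1, Acat2, where the table as a whole went from 467 to 26 calls. Without EV 12 h replicate 1 or 2 the calls were 5 and 7, and without the 4 libraries of 2 h doxycycline they were 12, with Hmgcs1, Idi1, Mvd, Dhcr7 and Cyp51 lost. In the E2F1 line 15 of the 20 calls at 12 h and 9 of the 17 at 6 h passed under all 12 alternatives run, and without E2F1 0 h replicate 1 or 6 h replicate 2 the 6 h count was 10. The 12 h calls of Dhcr7, Idi1, Msmo1 and Nsdhl depended on single libraries: E2F1 0 h replicate 1 (Dhcr7, Msmo1 and Nsdhl), 12 h replicate 1 (Dhcr7) and 12 h replicate 2 (Idi1, Msmo1 and Nsdhl). The 6 h calls of Hmgcs1 and Dhcr7 were lost without the 4 libraries of 2 h doxycycline. Dhcr7 was also lost without any 1 of the 4 libraries compared, and Hmgcs1 without any of them but E2F1 6 h replicate 1.

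**Figure D3:**
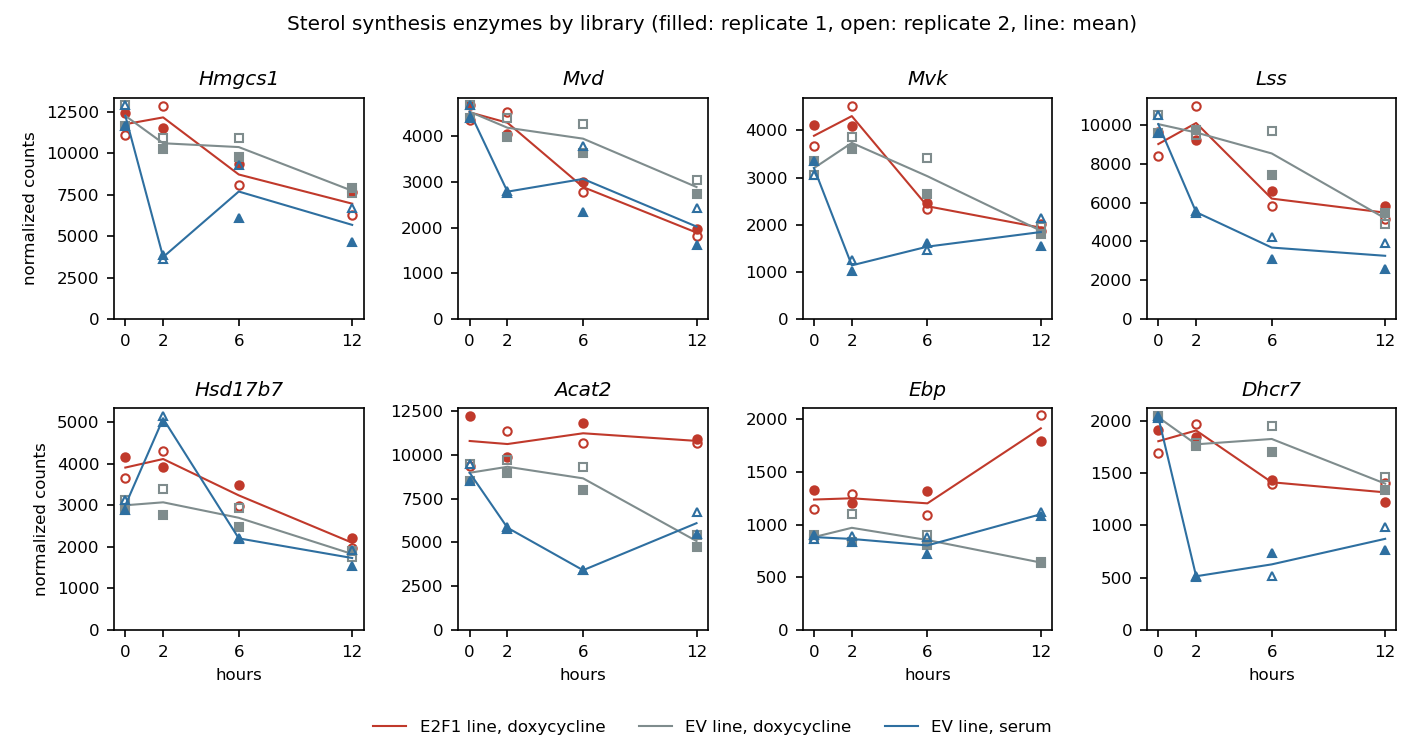
Normalized counts (y axis) of 8 sterol enzymes against hours after the stimulus (x axis), with filled points for replicate 1, open points for replicate 2 and lines through the means. The E2F1 line with doxycycline is red, the EV line with doxycycline grey and the EV line with serum blue, and the blue and grey lines start from the same 0 h libraries. Hmgcs1, Mvd, Mvk, Lss and Hsd17b7 end below 0 h in all 3 series, while Acat2 stays level and Ebp rises to 1791 and 2034 in the E2F1 line.

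To compare the lines, the doxycycline change seen with the empty vector was subtracted from that seen with E2F1. At 12 h this difference passed for 10 members, 8 higher and 2 lower (all genes called: 50.5%, with 27.3% higher and 23.3% lower). At 6 h it passed for 7, 5 higher and 2 lower (34.5%, with 22.2% and 12.3%). It was 2-fold or more for 1 member at 6 h (10.3% of all genes) and 2 at 12 h (18.9%). The 6 h split became 5 higher and 6 lower under quantile normalization and also with equal library totals, and the 12 h split 7 and 3 under quantile normalization. Of the sterol enzymes 14 of 17 did not pass at 12 h. The difference for Hmgcs1 was -0.10 (SE 0.24), for Lss 0.24 (SE 0.24), for Mvk -0.23 (SE 0.20) and for Dhcr7 0.08 (SE 0.20). With errors of this size, differences of about 0.5 on the log2 scale could not be told from none.

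The exceptions in the sterol arm were Acat2, Ebp and Mvd, and the library values of the first pair are given because of these differences. Acat2, the thiolase that joins acetyl-CoA units in the cytosol (ENSMUSG00000023832.14, chromosome 17, 12942890 to 12960747), held 12236 and 9364 at 0 h and 10897 and 10713 at 12 h in the E2F1 line. In the EV line it fell from 8500 and 9467 to 4755 and 5408. It was thus level in one line, within overlapping libraries, and lower in the other, a difference of 0.84 (SE 0.17, adjusted p 0.000566). Ebp, the isomerase that shifts the ring double bond (ENSMUSG00000031168.14, chromosome X, 8185329 to 8193512), rose from 1323 and 1151 to 1791 and 2034 in the E2F1 line. With the empty vector it held 899 and 863 at 0 h and 636 and 643 at 12 h. The E2F1 change was 0.63 (SE 0.14, adjusted p 0.000639), the EV change -0.46 (adjusted p 0.0679), and the difference 1.09 (SE 0.19, adjusted p 0.000141). For Mvd the difference was -0.60 (SE 0.25, adjusted p 0.049), and it failed without any 1 of the 8 libraries compared and without the 4 libraries of 2 h doxycycline, with values of -0.81 to -0.52 over all 16 alternatives. Mvk was the one sterol enzyme that passed at 6 h, at -0.61 (SE 0.20, adjusted p 0.0254), and it failed without any 1 of 4 single libraries: E2F1 0 h replicate 1, E2F1 6 h replicate 2, EV 0 h replicate 2 or EV 6 h replicate 2.

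**Figure D4:**
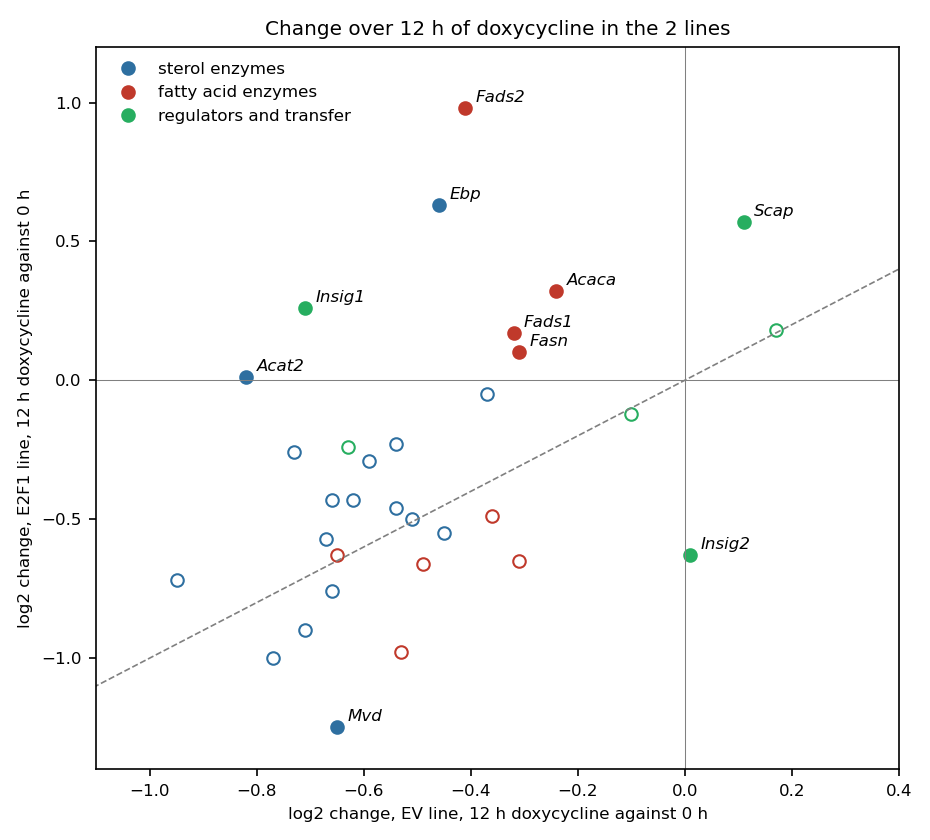
Log2 change over 12 h of doxycycline in the EV line (x axis) against that in the E2F1 line (y axis), with 1 point per member coloured by arm. Filled points with names passed the test of the difference between the lines, and the dashed line marks equal changes. Most sterol enzymes lie near the line in the lower left, and Fads2 (-0.41 and 0.98) and Ebp (-0.46 and 0.63) lie farthest above it.

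Fatty acid enzymes moved in both directions in the E2F1 line, as genes at large did. At 6 h 3 of the 9, Fasn, Acaca and Fads2, were higher and 4, Acly, Scd2, Elovl6 and Acss2, were lower, although of the latter only Acly stayed called without E2F1 0 h replicate 1 or 6 h replicate 2. At 12 h 2 were higher and 5 lower, with a median of -0.49. In the EV line 3 fell at 12 h (Acly, Elovl6 and Fads2) with a median of -0.36, and 0 rose. Of all genes 383 were called lower and 84 higher there.

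Fatty acid synthase, the enzyme that assembles palmitate, is encoded by Fasn (ENSMUSG00000025153.9, chromosome 11, 120805846 to 120824547). Its library values are given because of its rise at 6 h. In the E2F1 line its libraries held 26539 and 25594 at 0 h, 25554 and 27955 at 2 h, 53017 and 46468 at 6 h, and 30647 and 25387 at 12 h. The 6 h libraries stood far above all others, and the 12 h libraries overlapped those of 0 h. EV libraries held 23080 and 24043 at 0 h, 22746 and 24663 at 6 h and 20081 and 17995 at 12 h. The E2F1 change was 0.93 at 6 h (SE 0.10, adjusted p 3.45e-07) and 0.10 at 12 h (adjusted p 0.399), and the fall from 6 to 12 h was -0.83 (SE 0.10, adjusted p 1.13e-05). The difference between the lines was 0.92 at 6 h (SE 0.14, adjusted p 4.98e-05) and 0.41 at 12 h (SE 0.14, adjusted p 0.0204), and the later one was lost without any 1 of 4 single libraries: E2F1 0 h replicate 2, E2F1 12 h replicate 1, EV 0 h replicate 2 or EV 12 h replicate 2.

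Acaca, acetyl-CoA carboxylase, which supplies malonyl-CoA to fatty acid synthase (ENSMUSG00000020532.18, chromosome 11, 84129672 to 84401651), followed a similar course. The E2F1 line held 6281 and 5688 at 0 h, 6480 and 6840 at 2 h, 9604 and 8682 at 6 h and 7549 and 7369 at 12 h. The EV line held 4935 and 5029 at 0 h, 4947 and 5328 at 6 h and 4380 and 4057 at 12 h. Acaca rose by 0.61 at 6 h (SE 0.08, adjusted p 2.81e-06) and 0.32 at 12 h (SE 0.08, adjusted p 0.00147), the latter not called under quantile normalization (0.12, adjusted p 0.138). The lines differed by 0.57 (adjusted p 0.000505) and 0.56 (adjusted p 0.000317).

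Fads2, the delta-6 desaturase of polyunsaturated fatty acids (ENSMUSG00000024665.8, chromosome 19, 10062765 to 10101746), rose and stayed up. Its E2F1 line libraries held 10130 and 9553 at 0 h, 9715 and 10106 at 2 h, 19630 and 17744 at 6 h and 19632 and 19269 at 12 h. The EV line held 9242 and 9851, then 9671 and 9656, then 8657 and 9272, and then 7393 and 7005. The E2F1 6 h and 12 h libraries lay apart from every earlier one, and the EV libraries of 12 h lay below those of 0 h. Fads2 changed by 0.92 at 6 h (SE 0.10, adjusted p 3.29e-07) and 0.98 at 12 h (SE 0.10, adjusted p 1.07e-07) in the E2F1 line, and by -0.41 at 12 h (SE 0.10, adjusted p 0.0225) in the EV line. The difference between the lines was 1.01 at 6 h (SE 0.14, adjusted p 1.54e-05) and 1.39 at 12 h (SE 0.14, adjusted p 2.24e-07), the largest of the 32 members at both times. Its neighbour in function, the delta-5 desaturase gene Fads1, had changes of 0.20 and 0.17 in the E2F1 line, neither of which passed. The lines differed in Fads1 by 0.49 at 12 h (adjusted p 0.0185), not called under quantile normalization or without any 1 of 4 single libraries, among them EV 0 h replicate 2 and E2F1 0 h replicate 2.

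Other fatty acid enzymes went down in the E2F1 line, as they did by sign in the EV line at 12 h. Acly, ATP citrate lyase, which releases acetyl-CoA from citrate (ENSMUSG00000020917.17, chromosome 11, 100476353 to 100528000), went from 34017 and 31219 at 0 h to 26396 and 23750 at 6 h and 21356 and 19967 at 12 h in the E2F1 line. EV libraries went from 29606 and 31563 to 21290 and 22261 at 12 h. Both falls were without overlap, at -0.66 (SE 0.09, adjusted p 4.21e-06) and -0.49 (SE 0.09, adjusted p 0.00418). Acss2, which makes acetyl-CoA from acetate (ENSMUSG00000027605.18, chromosome 2, 155517948 to 155585724), went from 1164 and 1030 to 540 and 570 at 12 h of E2F1, a change of -0.98 (SE 0.17, adjusted p 6.64e-05). The EV line went from 942 and 930 to 590 and 707, apart from 0 h but at an adjusted p of 0.0866 (-0.53, SE 0.17). The difference between the lines at 12 h was -0.17 for Acly (SE 0.12, adjusted p 0.275) and -0.44 for Acss2 (SE 0.24, adjusted p 0.129). Neither passed, so these falls were not told apart from those with the empty vector.

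The stearoyl-CoA desaturase genes Scd1 and Scd2 introduce the double bond of oleate, and Elovl6 extends palmitate. Scd1 (ENSMUSG00000037071.3, chromosome 19, 44394455 to 44407879) had 11555 and 10490 at 0 h and 8188 and 7546 at 12 h in the E2F1 line, and 11275 and 9765 against 8230 and 8170 in the EV line. Scd2 (ENSMUSG00000025203.6, chromosome 19, 44293674 to 44306864), with the highest normalized counts of the members, had 71274 and 63378 against 46254 and 39445, and 74488 and 75858 against 61296 and 59578. Elovl6 (ENSMUSG00000041220.10, chromosome 3, 129532355 to 129638495) had 7252 and 6405 against 4791 and 4047, and 5540 and 6138 against 3992 and 3447. In these 3 genes both 12 h libraries lay below both 0 h libraries in each line, although the EV falls of Scd1 and Scd2 were not called. The E2F1 changes were -0.49, -0.65 and -0.63, with adjusted p of 0.000804, 0.000303 and 4.87e-05. The EV changes were -0.36 (adjusted p 0.0764), -0.31 (adjusted p 0.219) and -0.65 (adjusted p 0.00251). None of these differed between the lines at 12 h, where the differences were -0.13 (SE 0.15), -0.34 (SE 0.19) and 0.02 (SE 0.15).

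Among the regulators, Insig1 and Scap rose and Insig2 fell under E2F1, while the SREBP genes themselves were not called. Insig1, a sterol-sensing retention protein and itself a classical SREBP target (ENSMUSG00000045294.11, chromosome 5, 28071363 to 28078662), held 8387 and 6799 at 0 h in the E2F1 line. It held 9181 and 10504 at 2 h, 15214 and 12135 at 6 h and 9804 and 8360 at 12 h. EV libraries held 8804 and 8598, then 8345 and 8539, then 7721 and 8521, and then 5633 and 5002. The E2F1 libraries peaked at 6 h and overlapped 0 h at 12 h, and the EV libraries were lowest at 12 h. The changes were 0.85 at 6 h (SE 0.16, adjusted p 0.00019) and 0.26 at 12 h (adjusted p 0.152) in the E2F1 line, and -0.71 at 12 h (SE 0.16, adjusted p 0.0132) in the EV line. The lines differed by 0.95 at 6 h (SE 0.22, adjusted p 0.00256) and 0.97 at 12 h (SE 0.22, adjusted p 0.00122).

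Insig2, the second retention protein (ENSMUSG00000003721.14, chromosome 1, 121304353 to 121332589), went the other way. In the E2F1 line it held 2102 and 2061 at 0 h, 1883 and 1757 at 2 h, 1294 and 1207 at 6 h and 1346 and 1335 at 12 h. With the empty vector it held 2062 and 2261 at 0 h, 1957 and 2061 at 2 h, 2047 and 2114 at 6 h and 2328 and 2026 at 12 h, with only the 2 h libraries apart from 0 h. Its changes under E2F1 were -0.74 at 6 h (SE 0.10, adjusted p 6.66e-06) and -0.63 at 12 h (SE 0.10, adjusted p 2.35e-05), and the lines differed by -0.68 (adjusted p 0.000958) and -0.64 (adjusted p 0.000909). Scap, the escort that carries SREBPs to the Golgi (ENSMUSG00000032485.14, chromosome 9, 110333288 to 110384950), held 2767 and 2505 at 0 h, 4600 and 3937 at 6 h and 4013 and 3810 at 12 h in the E2F1 line. The EV line held 3184 and 3095, then 3238 and 3415, and then 3549 and 3223. Only the E2F1 line rose, by 0.69 at 6 h (SE 0.10, adjusted p 9.34e-06) and 0.57 at 12 h (SE 0.10, adjusted p 5.24e-05), and the lines differed by 0.61 (adjusted p 0.00187) and 0.46 (adjusted p 0.00836). These differences in Insig1, Insig2 and Scap, like those in Acaca and Fads2, passed under all 16 alternatives run at both times.

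The SREBP genes moved little. Srebf2, the main driver of the sterol arm (ENSMUSG00000022463.8, chromosome 15, 82147181 to 82205379), held 20455 and 19770 at 0 h and 18371 and 18669 at 12 h in the E2F1 line, and 17739 and 17690 against 16800 and 16237 in the EV line. Srebf1, which drives the fatty acid arm (ENSMUSG00000020538.15, chromosome 11, 60199089 to 60222581), held 3327 and 3346 against 3819 and 3759, and 2745 and 2641 against 3242 and 2834. The libraries lay apart in each case but the shifts were small. For Srebf2 they were -0.12 (adjusted p 0.299) and -0.10 (adjusted p 0.651), and for Srebf1 0.18 (adjusted p 0.0715) and 0.17 (adjusted p 0.326). The call of Srebf1 at 2 h in the EV line, 0.30 (adjusted p 0.0383), rests on the libraries that stood between the lines. Stard4, a carrier of cholesterol between membranes, held 5041 and 4710 at 0 h and 4568 and 3749 at 12 h in the E2F1 line (-0.24, adjusted p 0.12). EV libraries fell from 3827 and 4214 to 2632 and 2549 (-0.63, SE 0.13, adjusted p 0.00892). The difference between the lines in Stard4 was 0.40 (SE 0.18, adjusted p 0.0773).

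**Figure D5:**
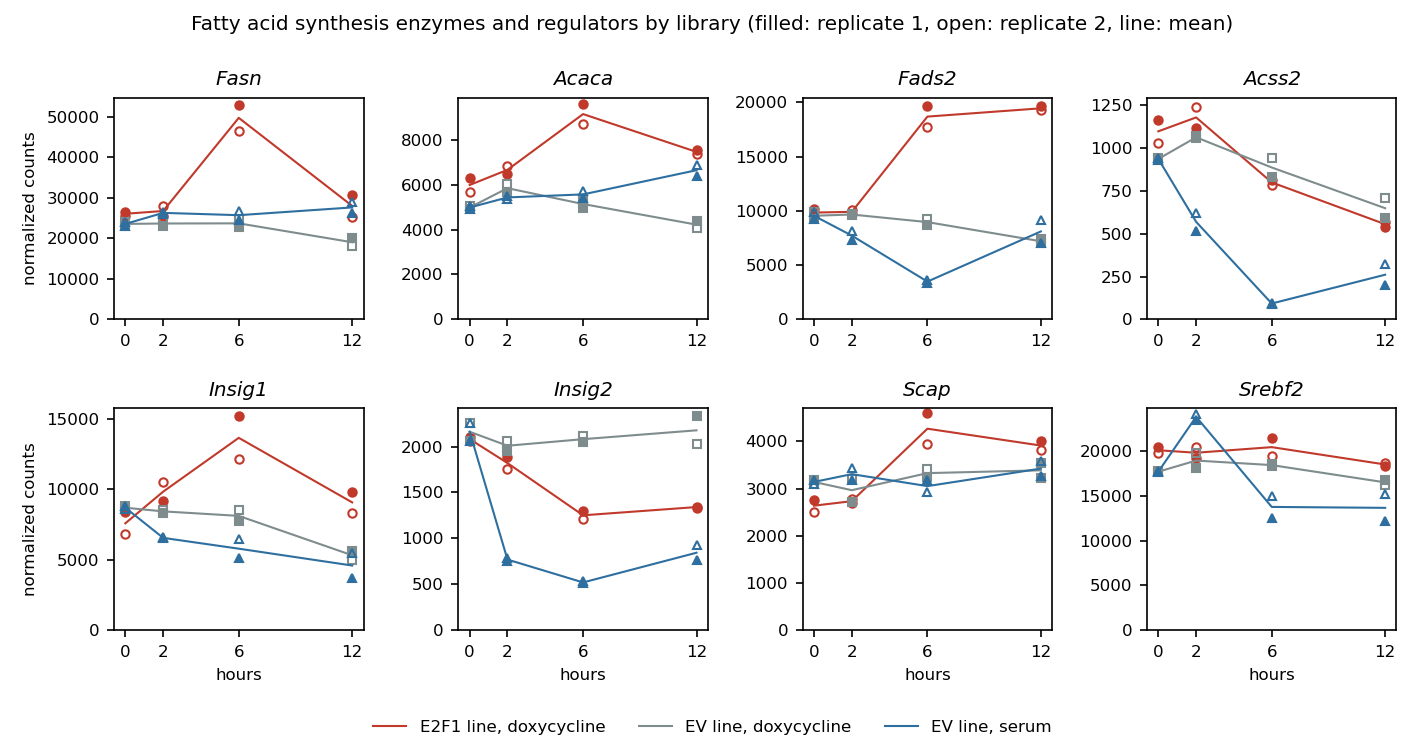
Normalized counts (y axis) of 4 fatty acid enzymes (top row) and 4 regulators (bottom row) against hours after the stimulus (x axis), with the same points, lines and colours for the E2F1 line, the EV line with doxycycline and the EV line with serum as in the plot of sterol enzymes. Fasn reaches 53017 and 46468 at 6 h in the E2F1 line and returns by 12 h, Fads2 stays up, and Acss2 and Insig2 reach their lowest levels at 6 h of serum.

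Most of both arms were lower with serum than at 0 h, although the EV line without added serum had also fallen by 12 h. At 2 h 12 sterol enzymes fell and 2 rose, at 6 h 15 fell and 0 rose, and at 12 h 16 fell and 1 rose. The median log2 change of the 17 went from -0.39 to -0.78 and -0.81, where all genes had 0.03, 0.03 and 0.05. Of the fatty acid enzymes 5, 7 and 7 fell and 0, 0 and 2 rose, with medians of -0.31, -0.82 and -0.36. Of all 11208 genes 3752, 3470 and 3328 were called lower and 4200, 4093 and 4039 higher at these times. Scaling to equal library totals moved the median of all genes by -0.374 at 2 h and -0.214 at 6 h. It gave 29 lower and 1 higher member at 2 h.

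The time of the lowest group mean differed among sterol enzymes. It came at 2 h of serum for 5 of the 17, at 6 h for 4 and at 12 h for 8. These counts rank means only, since 6 and 12 h of serum were not tested against each other and their libraries often overlapped. Dhcr7 was among those lowest at 2 h, with 2022 and 2043 at 0 h, 508 and 519 at 2 h, 735 and 519 at 6 h and 761 and 981 at 12 h. Its libraries lay far below 0 h throughout and had come back in part by 12 h. The changes were -1.98 (SE 0.14, adjusted p 5.22e-10), then -1.72 (adjusted p 5.86e-09) and then -1.23 (adjusted p 5.21e-07), and the rise from 2 to 12 h was 0.75 (SE 0.14, adjusted p 0.000147). Hmgcs1 dropped to 3885 and 3628 at 2 h, then held 6102 and 9309 at 6 h and 4665 and 6726 at 12 h, against 11630 and 12909 at 0 h. All of these lay below 0 h, although the pair at 6 h was far apart. Its changes were -1.71 (SE 0.17, adjusted p 4.31e-08), then -0.70 (adjusted p 0.00124) and then -1.13 (adjusted p 1.19e-05).

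Fdps and Mvk also had their lowest mean at 2 h. For Fdps the 2 and 12 h libraries overlapped, and the change between them was 0.33 (SE 0.23, adjusted p 0.214). Fdps went from 803 and 701 to 239 and 169 at 2 h, 336 and 389 at 6 h and 185 and 345 at 12 h. Its changes were -1.90 (SE 0.23, adjusted p 5.89e-07), then -1.05 (adjusted p 0.000509) and then -1.57 (adjusted p 9.18e-06), with all serum libraries below 0 h. Mvk went from 3355 and 3046 to 1022 and 1263, then 1617 and 1460, then 1545 and 2150. Here the change eased from -1.49 (SE 0.14, adjusted p 2.78e-08) to -1.06 (adjusted p 3.09e-06) and -0.81 (adjusted p 7.02e-05).

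Lss, Pmvk and Mvd had their lowest mean at 12 h, although their 6 and 12 h libraries overlapped. From 2 to 12 h they changed by -0.79 (adjusted p 0.000587), -0.87 (adjusted p 6.64e-05) and -0.49 (adjusted p 0.0206). That of Mvd was not called under quantile normalization or equal totals. Lss went from 9573 and 10478 to 5569 and 5442 at 2 h, 3121 and 4254 at 6 h and 2583 and 3947 at 12 h, and no serum library reached the 0 h level. Its changes were -0.86 (SE 0.17, adjusted p 0.000182), then -1.46 (adjusted p 5.65e-07) and then -1.65 (adjusted p 1.58e-07), the last of these the largest fall of any sterol enzyme at 12 h. Pmvk went from 2322 and 2178 to 1790 and 1722, then 944 and 1145, then 805 and 1145. These libraries too lay apart from 0 h, with changes of -0.36 (adjusted p 0.0421, lost without any 1 of the 4 libraries compared and without those of 2 h doxycycline), -1.11 (adjusted p 3.51e-06) and -1.23 (SE 0.15, adjusted p 1.31e-06). Mvd, at 4380 and 4666 at 0 h, held 2805 and 2760, then 2347 and 3772, then 1628 and 2416, with changes of -0.70 (adjusted p 0.00151), -0.60 (adjusted p 0.00522) and -1.19 (adjusted p 1.02e-05). Its 6 h call was lost without serum 6 h replicate 1 (adjusted p 0.175).

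A rise before the fall was seen in Hsd17b7 and Cyp51. Hsd17b7 held 2874 and 3120 at 0 h, 5005 and 5150 at 2 h, 2198 and 2206 at 6 h and 1527 and 1932 at 12 h. The 2 h libraries lay above 0 h and the later ones below. The changes were 0.76 (SE 0.12, adjusted p 2.21e-05), then -0.44 (adjusted p 0.00402) and then -0.80 (adjusted p 1.76e-05), and the drop from 2 to 12 h was -1.56 (SE 0.12, adjusted p 4.87e-09). The 2 h rise stayed called under all 12 alternatives, with values of 0.39 to 0.82. Cyp51, lanosterol demethylase, which is named for its early rise, rose by 0.49 at 2 h (SE 0.15, adjusted p 0.0074), but this became -0.07 under quantile normalization and was lost with equal totals and without EV 0 h replicate 1. Acat2 had its lowest level at 6 h, -1.39 (SE 0.12, adjusted p 1.42e-08), and stood at -0.56 (adjusted p 0.000552) at 12 h. Ebp was called higher at 12 h by 0.32 (adjusted p 0.049), a call lost under both scalings and without any 1 of the 4 libraries compared.

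In the fatty acid arm Acss2 gave the largest change of any member. Its libraries held 942 and 930 at 0 h, 518 and 620 at 2 h, 93 and 92 at 6 h and 199 and 322 at 12 h. The 6 h mean was 9.88% of that at 0 h, and every serum library lay below every 0 h library. The changes were -0.72 (SE 0.17, adjusted p 0.000866), -3.33 (SE 0.17, adjusted p 1.53e-11) and -1.88 (SE 0.17, adjusted p 2.77e-08). The authors' deposited table lists Acss2 at 6 h with a log2 fold change of -3.32 and an adjusted p of 8.37e-28. Exons of Acss2 overlap Acss2os, Ggt7 and Gss on the other strand, and the use of strand in counting is not given in the sources used here.

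The desaturase genes and Elovl6 had their lowest mean at 2 h (Scd2) or 6 h of serum, and their 12 h means were higher. Whether they recovered from 6 to 12 h was not tested. From 2 to 12 h Scd2 rose by 0.42 (adjusted p 0.00931) and Elovl6 by 0.31 (adjusted p 0.0154). The changes of Scd1 (0.19, adjusted p 0.127), Fads1 (-0.17) and Fads2 (0.06) did not pass. Of the 22 members called between 2 and 12 h, 11 lost their call under some alternative. Scd2 went from 74488 and 75858 to 36700 and 34163 at 2 h, 46697 and 51436 at 6 h and 39769 and 56551 at 12 h (-1.09, -0.62 and -0.66, adjusted p 6.41e-07, 0.000437 and 0.000236). Scd1 went from 11275 and 9765 to 7306 and 7006, then 5561 and 6317, then 7195 and 9302 (-0.55, -0.82 and -0.36, adjusted p 0.000173, 2.42e-06 and 0.00739). In both genes no serum library overlapped 0 h. Elovl6 went from 5540 and 6138 to 3912 and 3751, then 3379 and 2836, then 4472 and 5047 (-0.61, -0.91 and -0.30, adjusted p 4.75e-05, 4.71e-07 and 0.0195). The 12 h calls of Scd1 and Elovl6 were lost without serum 12 h replicate 1, and also without EV 0 h replicate 1 (Scd1) or replicate 2 (Elovl6). Fads2 went from 9242 and 9851 to 7326 and 8111, then 3340 and 3622, then 7063 and 9143. It was thus lowest at 6 h, at -1.46 (SE 0.10, adjusted p 4.3e-10), against -0.31 (adjusted p 0.00869) and -0.25 (adjusted p 0.0321), the last lost without serum 12 h replicate 1 (-0.06, adjusted p 0.594) and both lost without EV 0 h replicate 2. Fads1 behaved in the same way at 6 h, with -1.22 (SE 0.12, adjusted p 3.81e-08).

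Acly, Acaca and Fasn are the enzymes that supply and assemble palmitate. Acly held 29606 and 31563 at 0 h, 27782 and 27926 at 2 h, 21666 and 20394 at 6 h and 20586 and 23286 at 12 h, with changes of -0.13 (adjusted p 0.182), -0.54 (adjusted p 2.97e-05) and -0.48 (adjusted p 0.000112). Acaca held 4935 and 5029 at 0 h, 5496 and 5367 at 2 h, 5406 and 5726 at 6 h and 6400 and 6887 at 12 h. Only its 12 h rise passed, 0.41 (SE 0.08, adjusted p 0.000123), and it stayed called under all 12 alternatives. Fasn was at 0.23 at 12 h (adjusted p 0.0486), a call lost under 7 of 12 alternatives, among them both scalings and the fits without EV 0 h replicate 1, EV 0 h replicate 2, serum 12 h replicate 2 or the 4 libraries of 2 h doxycycline.

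Of the regulators, Insig2 had the deepest fall under serum. It went from 2062 and 2261 to 752 and 784 at 2 h, 508 and 529 at 6 h and 760 and 925 at 12 h. These libraries were far from 0 h at each time. The changes were -1.49 (SE 0.10, adjusted p 2.21e-10), -2.06 (SE 0.10, adjusted p 9.7e-12) and -1.36 (SE 0.10, adjusted p 2.11e-09). In the authors' deposited table Insig2 at 6 h had a log2 fold change of -2.05 and an adjusted p of 2.34e-22. Insig2 and Acss2 were the only 2 of the 32 members in the authors' lists, which hold changes of about 2 or more on the log2 scale.

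Insig1 went from 8804 and 8598 to 6528 and 6586 at 2 h, 5120 and 6454 at 6 h and 3716 and 5458 at 12 h (-0.41, -0.60 and -0.95, adjusted p 0.0256, 0.00241 and 3.44e-05), the first lost without any 1 of the 4 libraries compared. Srebf2 held 17739 and 17690 at 0 h, 23488 and 24223 at 2 h, 12534 and 15010 at 6 h and 12147 and 15189 at 12 h. It was thus above 0 h at 2 h and below it later. Its 2 h change of 0.43 (SE 0.10, adjusted p 0.000679) became -0.10 under quantile normalization and was lost with equal totals, and the later ones were -0.37 (adjusted p 0.0027) and -0.38 (adjusted p 0.00213). Those later calls were lost without replicate 1 of the same serum group. Srebf1 held 2804 and 2840 at 2 h, 3066 and 3231 at 6 h and 2897 and 3001 at 12 h against 2745 and 2641 at 0 h. Its 0.23 at 6 h (adjusted p 0.0271) was lost under both scalings and without EV 0 h replicate 2 or serum 6 h replicate 2. Scap changed by 0.07, -0.04 and 0.12, none of which passed. Stard4 dropped from 3827 and 4214 to 1572 and 1382 at 2 h and came back to 2692 and 3202 at 6 h and 3230 and 3697 at 12 h. Its changes of -1.45 (SE 0.13, adjusted p 1.11e-08), then -0.45 (adjusted p 0.0047) and then -0.22 (adjusted p 0.145), the middle one lost without serum 6 h replicate 1, gave a rise of 1.23 from 2 to 12 h (adjusted p 1.75e-07).

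Serum libraries were also set against EV libraries kept in doxycycline for the same time. The serum groups received no doxycycline, so added serum and the lack of doxycycline cannot be told apart here. At 6 h 21 members were lower with serum and 0 higher (all genes called: 65.8%, with 35.8% higher and 30% lower), with a sterol median of -0.65. At 12 h 12 were lower and 5 higher (70.4%, with 32.5% lower and 37.9% higher), or 15 and 3 under quantile normalization, with a sterol median of -0.22. Of the 9 fatty acid enzymes 7 were lower and 0 higher at 6 h, with a median of -0.88. At 12 h 2 of these 9 were lower and 3 higher, with a median of 0.01. By then Mvk (-0.04, SE 0.14), Idi1 (0.04, SE 0.17), Msmo1 (-0.22, SE 0.13) and Hsd17b7 (-0.09, SE 0.12) had fallen in both series and did not pass a test of the difference. Insig2 (-1.37, SE 0.10), Acss2 (-1.35, SE 0.17), Fdps (-0.91, SE 0.23) and Lss (-0.70, SE 0.17) were lower with serum. Ebp (0.78), Acaca (0.66), Fasn (0.54), Stard4 (0.42) and Elovl6 (0.36) were higher, the largest adjusted p among them being 0.00774. This rested on serum 12 h replicate 1: without it 3 members were lower and 8 higher, the sterol median was -0.03, and of the 9 sterol calls those of Dhcr7 and Ebp stayed, with Fdps at -0.46 (adjusted p 0.0698) and Lss at -0.39 (adjusted p 0.0559). Differences of 2-fold or more numbered 8 at 6 h (21.5% of all genes) and 2 at 12 h (24.5%).

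E2F1 and serum were compared through the change of each from its own 0 h libraries. At 6 h the E2F1 change was above the serum change in 20 members and below it in 0 (all genes called: 57.9%, with 30.3% higher and 27.6% lower). At 12 h it was above in 11 and below in 0 (48.8%, with 25% and 23.8%). It was 2-fold or more in 7 (25.6% of all genes) and 3 (18.1%). Fads2 had 0.92 against -1.46 at 6 h and 0.98 against -0.25 at 12 h, differences of 2.38 (SE 0.14, adjusted p 2.41e-10) and 1.23 (SE 0.14, adjusted p 1.16e-06). It was the only member called higher at 12 h of E2F1 and lower at 12 h of serum. Insig1 differed by 1.45 (SE 0.22, adjusted p 2.05e-05) at 6 h and 1.21 (SE 0.22, adjusted p 0.000193) at 12 h. Acss2 differed by 2.87 (SE 0.24, adjusted p 1.56e-08) and 0.90 (SE 0.24, adjusted p 0.00439). At 12 h 16 members were called lower under both treatments, 10 sterol enzymes, 5 fatty acid enzymes and Insig2, as were 15.3% of all genes. The differences for Mvd (-0.07, SE 0.25), Mvk (-0.19, SE 0.20) and Hsd17b7 (-0.09, SE 0.17) did not pass. Without serum 12 h replicate 2 the 12 h count of 11 became 17, and without replicate 1 it was 8, with Acss2 at 0.56.

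From 6 to 12 h of E2F1, 11 members fell and 1 rose (all genes called: 35.3%, with 20.2% lower and 15.1% higher), the rise being that of Ebp (0.67, SE 0.14, adjusted p 0.00107). Beside Fasn, the members with the largest falls were Hsd17b7 at -0.62 (adjusted p 0.000892), Mvd at -0.61 (adjusted p 0.0118) and Insig1 at -0.59 (adjusted p 0.00733). Without E2F1 6 h replicate 1 that count of 12 was 3, and without 12 h replicate 2 it was 4, and Mvd and Insig1 were lost in both cases. None of the 12 reached 2-fold (3.82% of all genes). From 2 to 12 h of serum 9 members rose and 13 fell (63.4%, with 31.7% in each direction), 3 of them by 2-fold or more (19.7%), a split that turned to 17 and 7 with equal library totals and to 12 and 8 under quantile normalization.

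Before any treatment the lines differed in a share of the members near that of all genes. At 0 h 4 of 32 were higher in the E2F1 line and 0 lower (all genes called: 15%, with 8.86% higher and 6.17% lower), or 4 and 1 under quantile normalization. None differed by 2-fold (1.86% of all genes). These were Ebp (0.49, adjusted p 0.0235), Hsd17b7 (0.38, adjusted p 0.0456), Srebf1 (0.31, adjusted p 0.0218) and Acaca (0.26, adjusted p 0.0278). When only the groups compared were fitted, 0 were called, and the same held without E2F1 0 h replicate 1 and without either EV 0 h library.

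The rest of the sterol pathway was read from a list of 21 further genes, 16 of them in the table. At 12 h 2 rose and 8 fell in the E2F1 line, 1 rose and 4 fell in the EV line, and 2 rose and 8 fell with serum, where 61.5%, 4.17% and 65.7% of all genes were called. Lbr, a nuclear envelope protein with sterol reductase activity, rose in the E2F1 line from 2410 and 2226 to 7844 and 7093 at 12 h. Lbr in the EV line went from 1623 and 1913 to 1191 and 1011, and the lines differed by 2.37 (SE 0.16, adjusted p 3.81e-09). Tm7sf2, which encodes another enzyme with the same activity, changed by -1.53 at 12 h of serum (SE 0.12, adjusted p 8.16e-09). Soat1, which esterifies cholesterol for storage, rose with serum from 1586 and 1910 to 21113 and 23359 at 2 h, 15600 and 18223 at 6 h and 8749 and 6157 at 12 h. Its changes were 3.67 (SE 0.15), 3.28 and 2.08, with no E2F1 library above 2451. Lbr was not typical of this list. Between the lines at 12 h, 1 of its genes was called higher by 2-fold or more and 3 lower, down to -2.24. Of all 11208 genes, 1340 were higher and 779 lower by this measure. Vldlr, among the lower ones, had a 12 h mean of 84.3% of 0 h in the E2F1 line and 389% in the EV line.

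Of 14 genes for SREBP transport, cleavage and turnover, 13 were in the table. With serum 10 rose and 1 fell at 2 h (all genes called: 70.9%) and 6 rose and 1 fell at 12 h (65.7%). In the E2F1 line 2 rose and 4 fell at 12 h (61.5%). Of 26 further fatty acid genes 24 were in the table, and at 12 h 7 rose and 9 fell under E2F1 (61.5%) while 11 rose and 8 fell with serum (65.7%). Mid1ip1, a protein that promotes polymerization of acetyl-CoA carboxylase, rose in the E2F1 line from 658 and 504 to 2777 and 2408 at 6 h and 1973 and 1895 at 12 h. Mid1ip1 in the EV line went from 618 and 573 to 371 and 433 at 12 h, and the lines differed by 2.31 (SE 0.19, adjusted p 3.11e-08). Lpin1, a phosphatidate phosphatase, changed by -2.89 at 2 h of serum (SE 0.17, adjusted p 3.05e-11), and Acacb, the mitochondrial carboxylase gene, by -2.35 (SE 0.28, adjusted p 6.59e-07). Of 14 genes of fatty acid oxidation in the table, 3 rose and 8 fell at 12 h of E2F1 (61.5%), 1 rose and 6 fell with serum (65.7%), and 0 were called in the EV line (4.17%), with 2 at an unadjusted p under 0.05. Cpt1a, which admits fatty acids to mitochondria, changed by -0.84 under E2F1 (SE 0.07, adjusted p 2.88e-08), 0.24 in the EV line (adjusted p 0.0773) and -1.5 with serum (SE 0.07, adjusted p 3.65e-11). Between the lines at 12 h, 1 oxidation gene was called higher by 2-fold or more and 3 lower. The higher one, Etfdh, had a 12 h mean of 227% of 0 h in the E2F1 line and 97.7% in the EV line. By this measure 0 genes of the SREBP list were higher and 1 lower, and 3 and 0 of the further fatty acid genes. Of all 11208 genes, 1340 were higher and 779 lower.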

How the data were processed

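RNA was measured in 22 libraries. The submitters' processing notes name FastQC, Trimmomatic, HISAT2, featureCounts, DESeq2 and build mm10, without roles or versions. The gene annotation, the use of strand and the filter on genes are not given in the sources used here. The main table holds normalized counts that the authors scaled and rounded to whole numbers, so they were treated as a score and not as raw counts. Other deposited tables give the log2 fold change and the adjusted p-value that the authors computed per time point, only for changes of about 2 or more on the log2 scale.

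The test was that of limma (version 3.58.1, R 4.3.3) on log2(value + 1). One model with 11 group means was fitted to all 22 libraries (mean-variance trend, 11 residual degrees of freedom). Benjamini-Hochberg adjustment ran over 11208 genes, with a threshold of 0.05. A filter of at least 10 in 2 or more libraries removed no gene. A fold change on this scale understates that of low genes. Members whose exons overlap another annotated gene (10 of 31 matched to GENCODE M21, among them Hmgcs1, Idi1, Fdps, Lss, Cyp51, Scd2, Elovl6, Acss2, Srebf1 and Scap) are uncertain to that extent. The code that fits the model was tested on simulated data.

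The members and all gene lists were chosen with earlier results of these data known. The rule for library values took, in each arm, up to 4 members with the largest change at 12 h of E2F1, 2 h of serum or 12 h of serum, among those called and not overlapping 0 h, and added Insig1, Srebf1, Srebf2, Scd1 and Scd2. Those of Fasn, Acat2, Ebp and genes outside the 32 were added after their values were seen. Genes outside the 32 could be named only where the E2F1 minus EV difference or the serum change at 12 h was called and at least 1 on the log2 scale. Not all genes that met this were named, so the named ones do not stand for their lists. Alternatives were a pseudocount of 8, no filter, a mean of at least 500, quantile normalization, equal totals, a replicate block, a fit to the compared groups alone, a 2-fold threshold, and fits that left out each library or the 4 libraries of 2 h doxycycline. A call said to hold under every alternative does so for all but the 2-fold threshold, which was applied to counts only. Where one library is left out, the one that remains is assumed to vary like the other groups. Figures were drawn with matplotlib 3.10.9 in Python 3.11.15.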

Additional observations from a re-analysis of the deposited data

Results flagged for a closer look

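These results were picked out because the same treatment gave different changes in the 2 lines, or E2F1 and serum gave different changes over the same time, by the limma test of the difference itself (Benjamini-Hochberg adjusted p at most 0.05) and by at least 1 on the log2 scale. No explanation was tested for any of them.

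Between the lines, the doxycycline change of Fads2, the delta-6 desaturase, was higher in the E2F1 line by 1.01 at 6 h (SE 0.14, adjusted p 1.54e-05) and by 1.39 at 12 h (SE 0.14, adjusted p 2.24e-07). That of Ebp, the sterol isomerase, was higher by 1.09 at 12 h (SE 0.19, adjusted p 0.000141).

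Between E2F1 and serum at 6 h, the change under E2F1 was the higher one in 7 members. The difference was 2.87 for Acss2 (SE 0.24, adjusted p 1.56e-08) and 2.38 for Fads2 (SE 0.14, adjusted p 2.41e-10). It was 1.46 for Acat2 (SE 0.17, adjusted p 1.12e-06), 1.45 for Insig1 (SE 0.22, adjusted p 2.05e-05) and 1.42 for Fads1 (SE 0.16, adjusted p 8.47e-07). It was 1.37 for Dhcr7 (SE 0.20, adjusted p 1.25e-05) and 1.32 for Insig2 (SE 0.14, adjusted p 3.09e-07), which both had negative changes under each treatment, although that of Dhcr7 under E2F1 was not called without any 1 of the 4 libraries compared. At 12 h the difference was 1.23 for Fads2 (SE 0.14, adjusted p 1.16e-06), 1.21 for Insig1 (SE 0.22, adjusted p 0.000193) and 1.14 for Fdps (SE 0.32, adjusted p 0.00684). Without serum 12 h replicate 1 the value for Fdps was 0.69 (adjusted p 0.0522), no longer called. The 2 treatments were given to different lines, so the line and the treatment cannot be told apart here. Groups of 2 libraries allow no search for single libraries far from the rest.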

How the results depend on the processing

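The members called in each comparison kept within 1.5 times their number under a pseudocount of 8, no filter, a mean of at least 500 and, wherever it applied, without the 4 libraries of 2 h doxycycline. Asking for a 2-fold change as well left 0 (6 h) and 2 (12 h) members under E2F1, 0 (2 h) and 0 (12 h) under EV doxycycline, and 7, 11 and 8 at 2, 6 and 12 h of serum. It left 1 (6 h) and 2 (12 h) for E2F1 minus EV, 8 and 2 for serum against doxycycline, and 7 and 3 for E2F1 against serum. It left 0 between the lines at 0 h, 0 between 6 and 12 h of E2F1, and 3 between 2 and 12 h of serum. Fitting only the groups compared gave 1 for E2F1 at 2 h, 0 for EV at 2 h and 0 between the lines at 0 h. Quantile normalization gave 0 for EV at 2 h and 11 for E2F1 minus EV at 6 h, and equal library totals 2 and 11. The serum 2 h changes of Cyp51 and Srebf2 turned to -0.07 and -0.10 under quantile normalization, and the change of Acly between 2 and 12 h of serum turned to 0.03. The cause was not tested.

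With 1 library left out, the counts ran from 0 to 0 (2 h), 10 to 16 (6 h) and 17 to 21 (12 h) for E2F1 and from 0 to 0, 0 to 0 and 1 to 15 for EV. They ran from 17 to 19, 21 to 27 and 20 to 27 for serum, 6 to 7 and 7 to 10 for E2F1 minus EV, 17 to 24 and 11 to 18 for serum against doxycycline, and 16 to 23 and 8 to 17 for E2F1 against serum. They ran from 0 to 3 between the lines, 3 to 11 between 6 and 12 h of E2F1, and 17 to 20 between 2 and 12 h of serum.

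With the replicate number as a block, the members called were 18 for EV at 12 h and 22 for serum against doxycycline at 6 h, and the count of every other comparison was as reported (0, 17 and 20 for E2F1 and 23, 27 and 29 for serum). Over 55 pairs of groups the deviations of same-numbered libraries correlated at -0.28 to 0.45 (median 0.03, over 0.1 in 18; 0.45 for EV 0 h with 6 h). The labels do not pair the libraries, which were treated as sharing only a number. Groups of 2 and an unknown depth in 6 libraries limit the precision of every value, and log2 differences between the lines under about 0.5 were mostly not resolved.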
